A study of Mus musculus with 4 samples.

Results

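Pdgfra positive mesenchymal stromal cells made up 59 of the 31279 bone cells that passed the filters, 28 and 29 of them in the 2 control libraries and 1 in each library of unloaded mice. They were chosen by their transcripts. A cell had to hold at least 1 unique molecular identifier (UMI, 1 counted transcript molecule) of Pdgfra, and Col1a1, Col1a2 and Col3a1 had to give at least 1% of its UMIs. Osteoblast transcripts (Bglap, Bglap2, Sp7), 2 sets of cartilage transcripts (Acan, Cytl1, Col10a1 and Col9a1, Col9a2, Matn3, Col11a2) and the set Myoc, Apod and Thbs4 each had to stay under 0.1%, and the neutrophil transcripts S100a8 and S100a9 together under 3%. Levels of these genes are therefore a description of the selection and not a result.

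The study examined how the cells of bone respond to the loss of mechanical load. Wild-type C57BL/6J mice were suspended by the tail for 28 days (hindlimb unloading, HLU, 2 libraries) or housed alike without suspension and otherwise untreated (Ctrl, 2 libraries). The leg bones (femur and tibia) were first cleared of marrow. Cells that enzyme digestion then freed from the bone were profiled by droplet single-cell RNA sequencing of transcript 3′ ends. The methods describe adult mice at the start of suspension, whereas the series text places the sampling at postnatal day 28, so the age is uncertain. The sex of the 4 mice and the order in which they were processed were not given in the sources used here.

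Pdgfra encodes the alpha receptor for platelet-derived growth factors and marks mesenchymal cells that have not become mature osteoblasts. In bone such cells include periosteal progenitors, fibroblasts of tendon and joint attachments, and the reticular cells of marrow, which carry the leptin receptor Lepr and secrete the chemokine Cxcl12 to hold blood stem cells. They build and remodel fibrous matrix, and they are sources of osteoblasts and of signals to blood cells.

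Ctrl replicate 1 held 7311 passing cells with a median of 6307 UMIs, and Ctrl replicate 2 held 7495 with 5936. HLU replicate 1 held 7571 passing cells with a median of 3875 UMIs, and HLU replicate 2 held 8902 with 6471.5. HLU replicate 1 was therefore the shallowest library and HLU replicate 2 the deepest in total, with 47819046 and 99849070 UMIs against 57925383 and 61296053 in Ctrl. The selected cells were far deeper than the typical bone cell, with medians of 18798 and 15579 UMIs and 3944 and 3457 genes in the Ctrl libraries. The HLU cells held 33977 and 8174 UMIs, both within the Ctrl range of 1362 to 34290. Mitochondrial transcripts took a median of 3.46% in each Ctrl library, and 2.78% and 2.12% in the HLU cells. Between 23 and 36 barcodes were shared by any 2 libraries, and no selected cell shared its barcode with another selected cell, although 1 selected Ctrl barcode also occurred in each HLU library. A doublet caller marked 463 to 699 passing cells per library and none of the 59.

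Cells lay on both sides of the limits. In 19 selected cells the 3 collagens took between 1.01% and 1.47% of UMIs, and 49 cells that met every other limit lay between 0.5% and 0.973%. Of the selected cells 14 held exactly 1 Pdgfra UMI, with 1362 to 22200 UMIs each, and 27 cells met every limit but held none, with 1842 to 21940 UMIs. Those 27 cells are used below as a neighbouring gate. The limit on Myoc, Apod and Thbs4 alone refused 17 cells and that on Acan, Cytl1 and Col10a1 alone 12, against 4 for the osteoblast transcripts.

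Of the 6 genes given as markers, Pdgfra and Col3a1 were part of the rule. Among the 57 Ctrl cells the others were seen unevenly. Ecm1, an extracellular matrix glycoprotein, was present in 51 cells (89.5%, exact 95% interval 78.5 to 96.0%) and Mmp2, a gelatinase, in 44 (77.2%, 64.2 to 87.3%). Il1rl1, the receptor for the alarmin IL-33, was present in 25 cells (43.9%, 30.7 to 57.6%) and Cxcl12 in 15 (26.3%, 15.5 to 39.7%). In the neutrophil gate of the Ctrl libraries (5697 cells, median 3624 UMIs against 16841 in the selected cells), which should lack these genes, the shares were 9.36% for Ecm1, 3.58% for Mmp2, 3.32% for Il1rl1 and 2.09% for Cxcl12. After each cell was thinned to 1000 UMIs the shares among the selected cells were 73.7%, 49.1%, 22.8% and 1.75%. The neutrophil shares were not thinned, so the 1.75% of Cxcl12 and their 2.09% stand at unlike depth and cannot be compared. Relative to summed UMIs (CPM, defined in the next paragraph), Cxcl12 stood at 90.4 and 95.0 in the selected cells of the Ctrl libraries. It stood at 9.70 and 4.39 CPM in the Ctrl neutrophil gate. Intervals here and below cover counting error only.

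Markers of marrow reticular cells were seen unevenly. Lepr had a UMI in 4 of the 57 Ctrl cells (7.02%, against 0.281% of the neutrophil gate), and Adipoq, the adipokine that marks the same cells, in 0 of 57, where 3 counts of 57 would allow up to 5.26% of cells with a UMI and the exact 95% interval up to 6.27%. Kitl, the stem cell factor, was present in 16 cells (28.1%, against 0.351% of the neutrophil gate) and in none after thinning, and Foxc1, a transcription factor of this lineage, in 37 cells (64.9%, against 4.20%) and in 1 after thinning. The 16 markers of this list summed to 435 and 612 UMIs per 1000000 UMIs of the sum (CPM) in the Ctrl sums against 1474 and 1680 in the neutrophil gate, where Hp, a transcript of neutrophils too, led the list. Without Hp the other 15 summed to 429 and 601 CPM against 86.5 and 85.6 in the neutrophil gate. In the HLU cells the list summed to 147 and 122 CPM. Most of the Ctrl cells had no UMI of Lepr, Adipoq or Cxcl12, and many had one of Foxc1.

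Markers of mural, endothelial, Schwann and blood cells were mostly low, whereas those of skeletal lineages were not. The cartilage list summed to 9723 and 17000 CPM in the Ctrl sums, against 4512 and 4473 in the Ctrl neutrophil gate. The tendon and ligament list summed to 5077 and 9308, against 494 and 366 in that gate. The osteoblast list summed to 27930 and 27100 CPM, against 2107 and 1553 in the neutrophil gate. Of that sum Sparc gave 17690 and 14810 CPM and Spp1 6420 and 11460. These sums do not assign the cells to a lineage. Of 14 mural cell markers 10 had no UMI in any Ctrl cell, among them Rgs5, Myh11, Tagln and Mcam, and the most abundant were Pdgfrb at 86.3 and 67.5 CPM and Cspg4 at 20.5 and 99.2. Of 12 endothelial markers 8 had none, among them Pecam1, Cdh5, Kdr and Emcn, and the list summed to 14.4 and 92.9 CPM, of which Ramp2 gave 6.16 and 67.5. Among Schwann cell markers Sox10 and Cdh19 had none, and Pmp22, which fibroblasts also express, led at 189 and 420 CPM. The neutrophil list summed to 928 and 2490 CPM in the Ctrl cells and 1207 and 1468 CPM in the HLU cells, led by S100a9, against 261000 and 284300 in the Ctrl neutrophil gate. The macrophage list reached 2569 and 7154 CPM, of which Fn1, a matrix gene of fibroblasts too, gave 2524 and 7084, while the pan-leukocyte gene Ptprc was seen in 4 of 57 cells.

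The most abundant transcripts outside the selection rule included Fth1, Malat1, Sparc, Mmp13, Dcn and Spp1. Fth1, the ferritin heavy chain, took 5.82% and 3.06% of UMIs in the Ctrl sums, and 3.66% and 1.27% in the HLU cells. Sparc, a collagen-binding glycoprotein, took 1.77% and 1.48% in Ctrl and 0.998% and 1.30% in HLU. Dcn, the small proteoglycan decorin, took 0.791% and 2.12% in Ctrl against 0.124% and 4.62% in HLU, so the 2 HLU cells lay on either side of both Ctrl sums. Malat1, a nuclear RNA, took 10.3% of the UMIs of the HLU replicate 2 cell against 1.98% and 2.84% in Ctrl and 0.489% in the other HLU cell. Gm42418, which overlaps a ribosomal RNA locus, took 6.03% of that same cell against 0.370% and 0.450% in Ctrl. Among single Ctrl cells Malat1 reached 1116 per 10000 UMIs, above the 1034 of that cell, whereas Gm42418 reached at most 149.9 against its 603. The part of Gm42418 in the comparisons below was not tested.

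Mmp13, Mmp3 and Ecm1 were among the 15 genes with the largest ratio to osteoblasts. Mmp13 (collagenase 3, chr9:7272514-7283331, plus strand, mm10) stood at 17640 and 15530 CPM in the Ctrl sums, against 455 and 1123 in the osteoblast gate, which is the same collagen-rich selection with the osteoblast transcripts at or above 0.1%. In the HLU cells Mmp13 stood at 412 CPM (14 UMIs) and at 0. Mmp3 (stromelysin 1, chr9:7445822-7455975, plus strand) stood at 3890 and 12020 CPM in Ctrl against 251 and 321 in the osteoblast gate and 249 and 6301 in the gate of collagen-rich cells with Myoc, Apod and Thbs4 at or above 0.1%, and had no UMI in either HLU cell. Ecm1 (chr3:95734147-95739569, minus strand) stood at 2539 and 2197 CPM against 78.4 and 210, with 265 and 612 in the HLU cells. The gates were cut from transcripts of the same cells, so these differences carry no test.

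The bases just upstream of the start sites of these 3 genes are shown because each carries 1 copy of the same short motif. The motif searched was TGANTCA, the binding sequence of AP-1 factors such as Fos and Jun, which reads the same on both strands when N is any base. The runs are the 120 bases before the RefSeq start (GRCm38.p6, the assembly named mm10), 5′ to 3′ on the strand of the gene, with the match in capitals. They cover chr9:7272394-7272513 (plus) for Mmp13, chr9:7445702-7445821 (plus) for Mmp3 and chr3:95739570-95739689 (minus) for Ecm1.
Mmp13: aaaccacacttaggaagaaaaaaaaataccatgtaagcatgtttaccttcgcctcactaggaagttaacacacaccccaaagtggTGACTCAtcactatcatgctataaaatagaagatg
Mmp3: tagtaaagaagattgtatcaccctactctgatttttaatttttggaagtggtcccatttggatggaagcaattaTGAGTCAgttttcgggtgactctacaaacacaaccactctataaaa
Ecm1: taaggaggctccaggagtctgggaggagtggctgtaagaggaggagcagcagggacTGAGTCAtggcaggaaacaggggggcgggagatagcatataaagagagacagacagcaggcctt

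The first base of the match lay at -35 in Mmp13, -46 in Mmp3 and -64 in Ecm1, counted back from the start site. Among all 32851 RefSeq promoters 3.41% held the motif in the same 120 bases and 6.75% in 250 bases. The genes shown were picked for their match, so these shares are no test of them. Mmp10, also searched, held 1 match, and Mmp2, Lum and Dcn had no promoter to search. Promoters of Pdgfra, Il1rl1, Ptges, Ctsk, Spp1, Ibsp and Chad held no match in 250 bases. A match describes the letters in this window and is not evidence of binding.

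Il1rl1 (chr1:40429570-40465415, plus strand) showed the largest ratio to the osteoblast gate by the naming rule, at 826 and 810 CPM in the Ctrl sums against 0 and 0. It was not restricted to the selected cells, since the gate defined by Myoc, Apod and Thbs4 held 0 and 703 CPM. Behind the equal sums lay few cells, with 13 of 28 and 12 of 29 Ctrl cells positive and the highest single cell at 66.6 UMIs per 10000. Its ligand gene Il33 had 1 UMI in all the Ctrl cells.

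The other genes of largest ratio to the osteoblast gate included 3 chemokines. Cxcl1, a neutrophil chemoattractant, stood at 1633 and 1323 CPM against 110 and 49.4 in the osteoblast gate, but at 1952 and 2067 in the Myoc, Apod and Thbs4 gate. Ccl2, a monocyte chemoattractant, stood at 762 and 1049 CPM against 15.7 and 0 in the osteoblast gate and 249 and 1335 in the Myoc, Apod and Thbs4 gate. Ccl5, a T cell chemoattractant, stood at 1555 and 342 CPM, but came from 12 of 57 cells, with 40.8% of its UMIs in 1 cell. Igfbp2, an insulin-like growth factor binding protein, stood at 668 and 65.4 CPM from 9 cells, and Mmp12, macrophage elastase, at 142 and 182 from 7, with 47.8% and 54.8% of the UMIs in their top cells. Slpi, a leukocyte protease inhibitor, stood at 1380 and 578 CPM in the selected cells and at 1016 and 1230.0 CPM in the neutrophil gate, which was the higher of the 2 levels in Ctrl replicate 2. Procr, the protein C receptor, Edil3, Plpp3, Cilp and Npy completed the 15 genes, and Npy was higher in the Pdgfra-negative neighbours (268 and 1202 CPM) than in the selected cells (67.8 and 384).

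**Figure D1:**
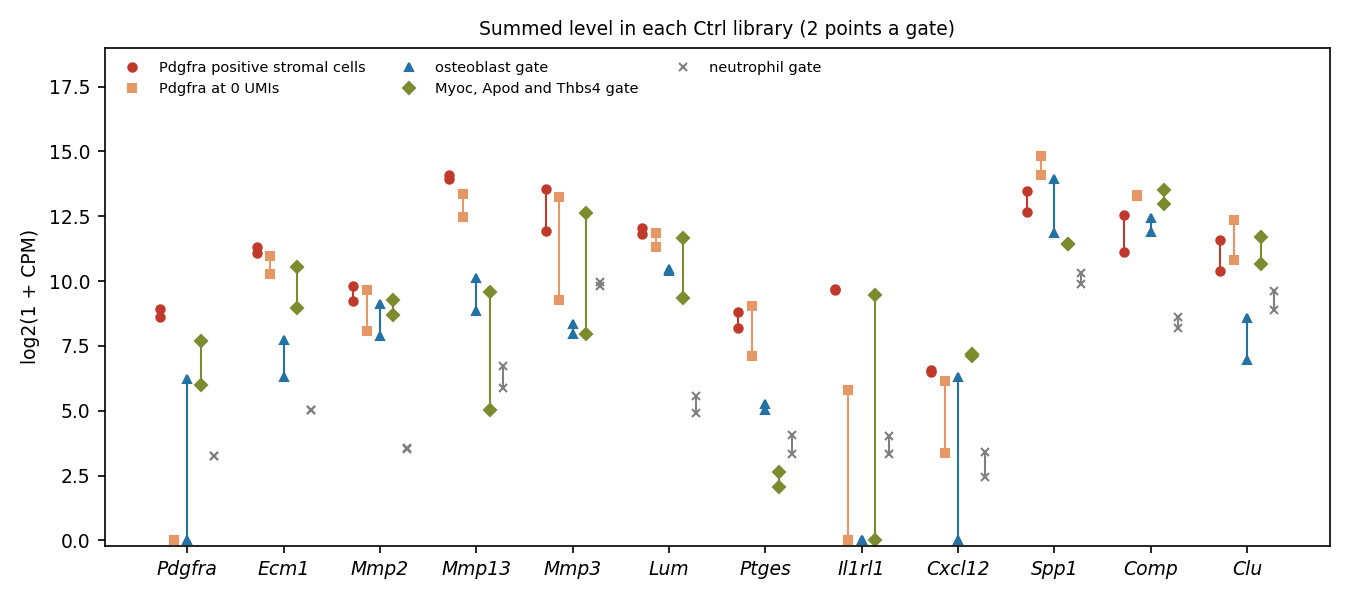
Summed level of genes in each gate of the 2 Ctrl libraries, as log2(1 + CPM), with 1 point per library and a line joining the 2 points of a gate. Mmp13 and Ecm1 lie higher in the Pdgfra positive cells than in the osteoblast gate in both libraries, and Mmp13 is also high in the cells that met the same limits with Pdgfra at 0 UMIs (10460 and 5643 CPM).

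The Pdgfra-negative neighbours shared the leading transcripts in part. They held 10460 and 5643 CPM of Mmp13, 9613 and 610 CPM of Mmp3 and 1236 and 2003 CPM of Ecm1, but 55.4 and 0 CPM of Il1rl1. Their median depth was 5155 and 8968 UMIs in the Ctrl libraries, against 18798 and 15579 in the Pdgfra positive cells. Pdgfra was a rare transcript, with a median of 2.72 UMIs per 10000 in the selected Ctrl cells, and 38.6% of those cells kept a Pdgfra UMI after thinning to 1000 UMIs.

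The 57 Ctrl cells were not uniform. A split was drawn at Mmp13 of 0.1% of UMIs and, below it, at Spp1 of 0.3%, both set after the values were seen. It gave 37 Mmp13 cells, 11 Spp1 cells and 9 other cells. The nearest cells to the Mmp13 limit held 0.0541% and 0.158%, and the nearest to the Spp1 limit 0.120% and 0.348%, so few cells lay close to either. Mmp13 cells were 22 of 28 in Ctrl replicate 1 (78.6%, 59.05 to 91.7%) and 15 of 29 in Ctrl replicate 2 (51.7%, 32.5 to 70.6%), and the intervals overlap. These sets are ranges of 1 measurement in the same cells, not cell types, and the genes below describe them without a test.

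**Figure D2:**
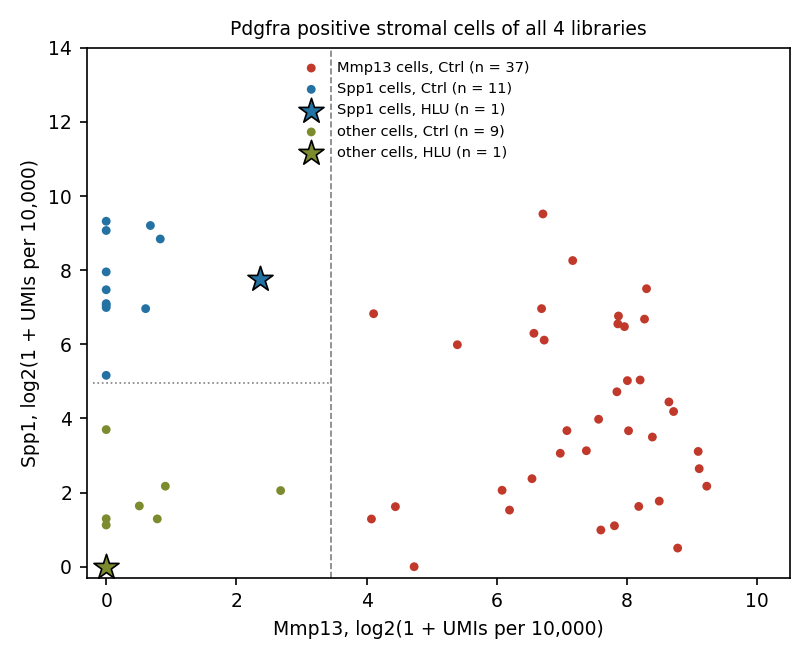
Mmp13 against Spp1 in each of the 59 Pdgfra positive cells, both as log2(1 + UMIs per 10000), coloured by the sets drawn at 0.1% and 0.3% of UMIs and with the HLU cells as large outlined symbols. The 37 Mmp13 cells stand to the right, the HLU replicate 1 cell lies among the Spp1 cells with 216.6 Spp1 UMIs per 10000, and the HLU replicate 2 cell held neither transcript.

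Mmp2, Lum and Ctsk were higher in the Mmp13 cells than in the Spp1 and other cells. Mmp2 was present in all 37, at 1007 and 1042 CPM, against 402 and 9.22 CPM in the Spp1 cells and 0 and 125 in the other cells. Lum, the proteoglycan lumican, stood at 4895 and 5883 CPM, Ctsk, the collagen-degrading cathepsin K, at 915 and 1095, and Col12a1, a collagen on fibril surfaces, at 900.0 and 735 CPM. Ptges, a prostaglandin E synthase, stood at 526 and 525 CPM, and Tgfb2, a transforming growth factor, at 723 and 525. Sfrp2, a Wnt antagonist, was seen in 21 Mmp13 cells and Postn, periostin, in 15, and neither in any other Ctrl cell.

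The genes most like Mmp13 over the 57 Ctrl cells, by Pearson correlation of log2(1 + UMIs per 10000), were Mmp2 at 0.75, Lum at 0.72, Aebp1 at 0.71 and Ptges at 0.70 among 4098 genes compared. Within each Ctrl library the value for Mmp2 was 0.72 and 0.75, and that for Lum 0.80 and 0.67. The most opposed were Pcolce2, a procollagen processing enhancer, at -0.75 and Cilp, a cartilage matrix protein, at -0.66. Depth ran with Mmp13 at 0.24. Cells of 1 mouse share a library, so these values describe the cells and carry no p.

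Chad, 1500015O10Rik, Comp and Clu were highest in the Spp1 cells. Spp1 (osteopontin, chr5:104435118-104441050, plus strand) stood at 11940 and 37560 CPM there. Chad, the cartilage protein chondroadherin, stood at 6848 and 8544 CPM, and 1500015O10Rik, the secreted protein gene also known as Ecrg4, at 13560 and 3742. Comp, cartilage oligomeric matrix protein, stood at 8639 and 11290 CPM against 1218 and 4014 in the Mmp13 cells. Clu, the chaperone clusterin, followed at 3097 and 7226 CPM against 1104 and 1793. Spp1, Chad and Mmp3 were also read in many cells of the Ctrl neutrophil gate (78.1%, 44.7% and 79.9% of cells), which is the background for a single UMI of them. The same held for 1500015O10Rik, Clu and Comp (68.1%, 65.9% and 44.5%). Ibsp, the bone sialoprotein gene, had 60.3% of its Ctrl UMIs in 1 cell, which was an Mmp13 cell.

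The 9 other cells held more Igfbp6 and Prelp than the Mmp13 and Spp1 cells in both Ctrl libraries. Dcn stood at 45470 and 27160 CPM in them against 5820 and 12050 in the Mmp13 cells and 12980 and 37290 in the Spp1 cells. Igfbp6, an insulin-like growth factor binding protein of fibroblasts, stood at 2210 and 6511 CPM and Prelp, a basement membrane proteoglycan, at 1406 and 1496. Cilp stood at 4419 and 1649 CPM there, against 38.8 and 146 in the Mmp13 cells and 804 and 2516 in the Spp1 cells, and Comp at 5424 and 5111. Chad was at 268 and 134 CPM and 1500015O10Rik at 268 and 163, both below the Spp1 cells. Ly6a and Clec3b, markers of adventitial fibroblasts, were at 0 in the 2 cells of Ctrl replicate 1 and at 911 and 489 CPM in the 7 cells of Ctrl replicate 2, while Pi16 and Dpp4 of the same list had 1 UMI and 0 UMIs over all Ctrl cells.

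The share of Pdgfra positive cells was lower in the unloaded mice. They were 0.383% of passing cells in Ctrl replicate 1 (exact 95% interval 0.255 to 0.553%) and 0.387% in Ctrl replicate 2 (0.259 to 0.555%). They were 0.0132% in HLU replicate 1 (0.000334 to 0.0736%) and 0.0112% in HLU replicate 2 (0.000284 to 0.0626%). The groups did not overlap, and no HLU interval reached a Ctrl interval. The mean was 0.385% ± 0.00279 (SD, n = 2) in Ctrl and 0.0122% ± 0.00140 (SD, n = 2) in HLU, a ratio of 31.5, with p = 0.33 by a two-sided exact permutation test, the smallest value that 2 libraries against 2 can give. The test therefore could not pass 0.05 whatever the shares.

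**Figure D3:**
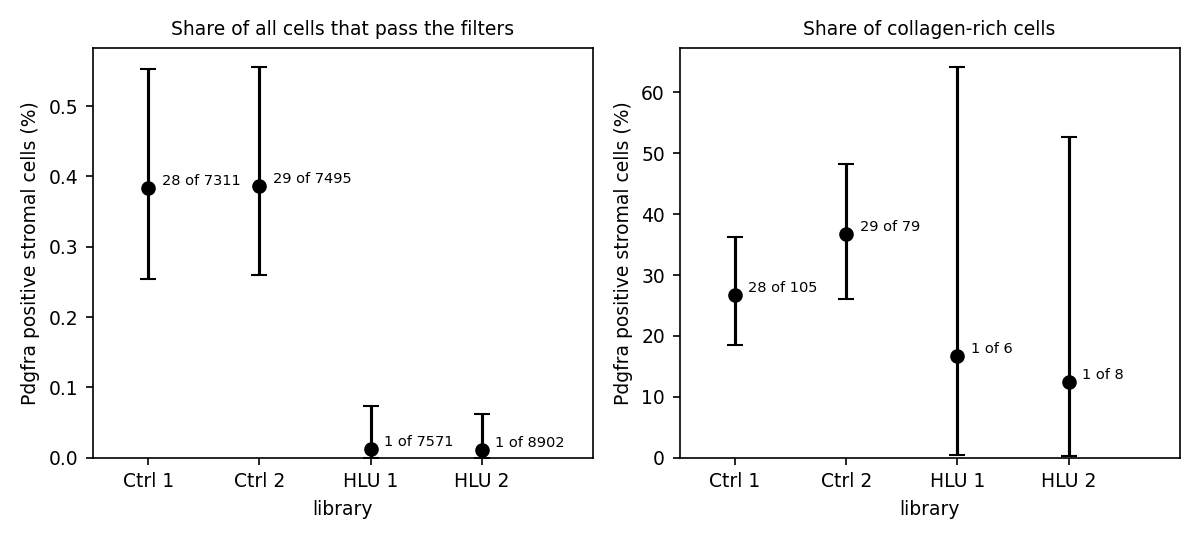
Share of Pdgfra positive stromal cells in each library, as percent of all passing cells, with exact 95% binomial intervals, beside the share of collagen-rich cells (at least 1% of UMIs from the 3 collagens). Against all cells the HLU libraries lie at 0.0132% and 0.0112%, under both Ctrl libraries, and against collagen-rich cells the intervals of the 2 groups overlap.

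All collagen-rich cells were fewer in the HLU libraries, and neutrophils made up more of them. Collagen-rich cells numbered 105 and 79 in Ctrl and 6 and 8 in HLU. Among them the Pdgfra positive share was 26.7% (18.5 to 36.2%) and 36.7% (26.1 to 48.3%) in Ctrl, and 16.7% (0.421 to 64.1%) and 12.5% (0.316 to 52.6%) in HLU. Those intervals overlap, so at this depth the Pdgfra positive cells could not be shown to be scarcer than other collagen-rich cells. The neutrophil gate took 31.6% and 45.2% of passing cells in Ctrl against 71.8% and 67.2% in HLU. Outside that gate the Pdgfra positive share was 0.560% and 0.706% in Ctrl and 0.0469% and 0.0343% in HLU, a ratio of 15.6. The number of these cells in the tissue and their recovery in the digest cannot be told apart.

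Neighbouring gates had the same order. The osteoblast gate held 9 and 6 cells in Ctrl and 2 and 3 in HLU, and the Myoc, Apod and Thbs4 gate held 36 and 21 cells in Ctrl against 0 and 1 in HLU. The Pdgfra-negative neighbours numbered 18 and 6 in Ctrl and 1 and 2 in HLU. Whether the difference was unlike between these gates was not tested.

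Stromal transcripts were also counted in cells outside the stromal gates, and less so in the HLU libraries. In the neutrophil gate, which was limited to collagens under 0.1% of UMIs, Pdgfra stood at 8.55 and 8.57 CPM in Ctrl and at 0.0666 and 0.357 in HLU. Dcn stood at 2079 and 1970 CPM in Ctrl and 35.7 and 60.1 in HLU, and Spp1 at 1277 and 947 against 524 and 76.1. All 18 stromal genes examined, chosen after values were seen, were lower in both HLU libraries than in both Ctrl libraries, with ratios of Ctrl to HLU means from 3.71 to 117 and a median of 23.1. The largest is Col3a1, a collagen that the gate limited, and the other 17 ranged from 3.71 to 90.5 with a median of 19.9. Blood transcripts in the same gate did not share that order. Hbb-bs, a haemoglobin chain, stood at 28.6 and 18.7 CPM in Ctrl and 61.8 and 44.9 in HLU, and the antibody gene Igkc at 27.1 and 62.5 against 167 and 17.8. These cells were not among those selected, no test was made on them, and the part of this background in the comparisons was not tested.

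**Figure D4:**
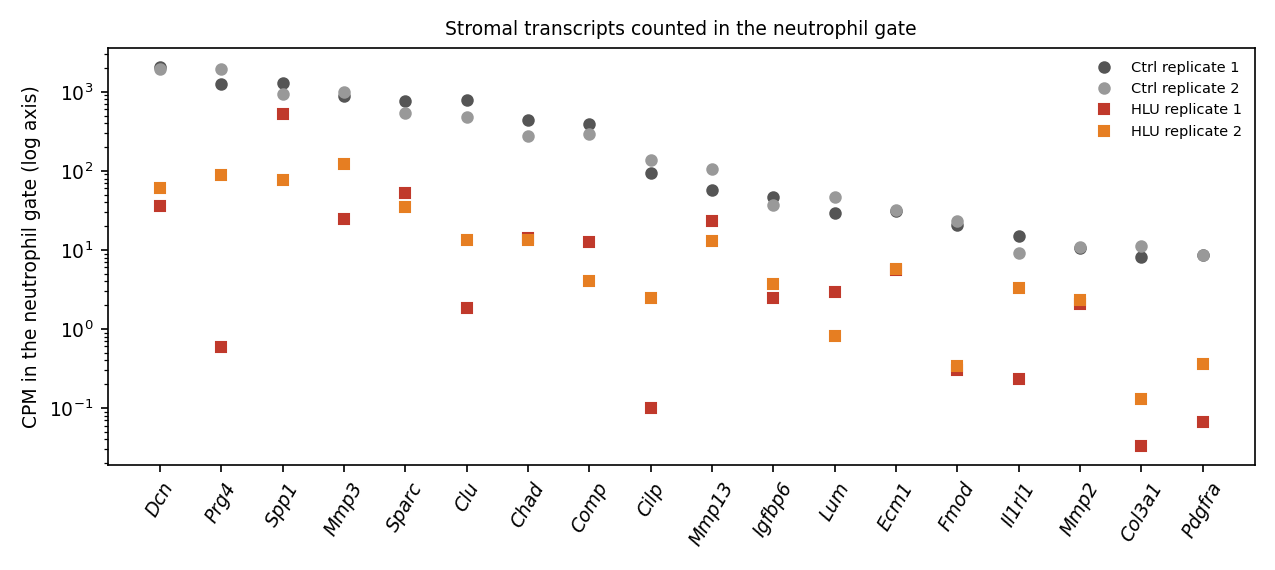
CPM of 18 stromal genes in the neutrophil gate of each library on a log axis, with 1 point per library. Both HLU libraries lie below both Ctrl libraries for all 18 genes, with Pdgfra at 8.55 and 8.57 CPM in Ctrl and 0.0666 and 0.357 in HLU.

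With 1 cell in each HLU library, the comparison of expression sets 2 single cells against the sums of 28 and 29 cells. It was run with edgeR's quasi-likelihood test on the library sums, and its adjusted p measures the spread between 2 sums per group, of which the HLU sums carry the variation of single cells. Of 3284 genes tested, 30 passed an adjusted p of 0.05, or 0.914% of all tested, with 28 lower in HLU (0.853%) and 2 higher (0.0609%). The HLU libraries lay both below both Ctrl libraries in 25.0% of genes tested, and did not overlap in either direction in 38.8%. Of the 28 lower genes 25 had no UMI in either HLU cell, which together held 42151 UMIs. Those 25 passed the count filter through the Ctrl sums alone. Counts of calls per list below therefore do not show that a list fell. The call was lost under many alternatives given in the closing section, among them an equal number of cells per library, which left 0 calls.

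**Figure D5:**
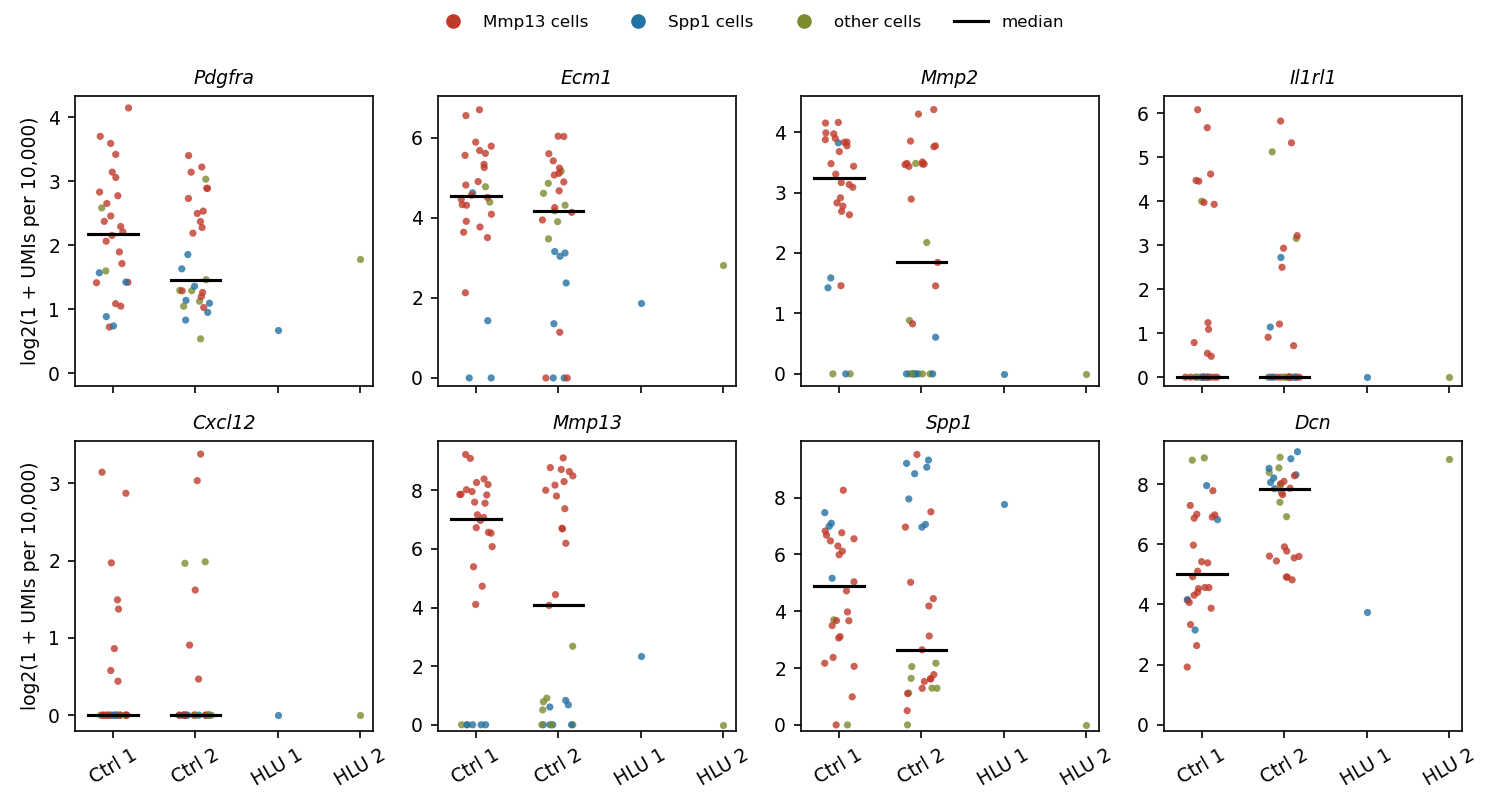
Levels of marker and leading genes in each of the 59 cells by library, as log2(1 + UMIs per 10000), with 1 point per cell coloured by the Mmp13, Spp1 and other sets and a bar at the library median. Each HLU library shows 1 cell, and the Ctrl libraries hold cells at 0 for Il1rl1 and Cxcl12 (32 and 42 of 57).

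Of the genes that passed, Mmp3 had the largest lower bound on its fall. With no UMI in either HLU cell, such a bound follows the Ctrl level and does not rank the falls. Mmp3 stood at 3890 and 12020 CPM in Ctrl and at 0 in both HLU cells (edgeR adjusted p = 0.0217). It was at least 112-fold lower than the Ctrl mean, against a floor of 3 counts over the group (71.2 CPM). Against the lower Ctrl sum it was at least 54.7-fold lower. Of the 42151 UMIs behind that floor 33977 came from the HLU replicate 1 cell, so this bound and those below rest mostly on that cell. Of the 57 Ctrl cells 2 were also at 0 for Mmp3. However, 79.9% of the Ctrl neutrophil gate held a UMI of it, so a Ctrl cell above 0 need not express it. Mmp3 in the neutrophil gate, where it is not expected from the cells themselves, was 891 and 989 CPM in Ctrl and 24.6 and 121 in HLU, so its level outside the stromal cells moved the same way. Mmp2 (chr8:92827291-92853420, plus strand) stood at 902 and 604 CPM in Ctrl and at 0 in HLU, at least 10.6-fold lower (edgeR adjusted p = 0.0227), and 13 Ctrl cells were at 0 too. Mmp13 did not pass (edgeR adjusted p = 0.0618), and 13 of the 57 Ctrl cells held none. Of the 22 metalloproteinases and inhibitors, 12 were tested and 2 were called lower, Mmp3 and Mmp2, beside 0.853% over all genes. Both were among 3 tested members with no UMI in either HLU cell. They passed the count filter through the Ctrl sums alone, so the count does not show a fall of the list. Timp1 and Timp2, inhibitors of these proteases, did not pass, at 869 and 682 CPM and 1068 and 1019 CPM in Ctrl against 500.3 and 367 and 942 and 367 in HLU.

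Il1rl1 stood at 826 and 810 CPM in Ctrl and at 0 in both HLU cells, at least 11.5-fold lower (edgeR adjusted p = 0.0227). However, 32 of the 57 Ctrl cells also held no Il1rl1, so a single cell at 0 was common among controls. Cxcl12 stood at 90.4 and 95.0 CPM in Ctrl and at 0 in HLU, where the floor of 71.2 CPM leaves little room for a difference. Ecm1 stood at 2539 and 2197 CPM in Ctrl and at 265 and 612 in HLU, below both Ctrl sums without passing.

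Of 30 prostaglandin, IL-33 axis and inflammatory genes 16 were tested and 5 were called lower (Il1rl1, Ptges, Ptgs2, Icam1 and Serping1), beside 0.853% lower over all genes tested. None was called higher. Of the 16 tested genes 8, with the 5 called genes among them, had no UMI in either HLU cell. Over all 3284 genes tested 275 had none. Such genes passed the count filter through the Ctrl sums alone, so no median change of the list is given. Ptges stood at 454 and 295 CPM in Ctrl, and Ptgs2, the inducible cyclooxygenase, at 314 and 270, and both were at 0 in HLU. Icam1, a leukocyte adhesion receptor, stood at 370 and 471 CPM in Ctrl, and Serping1, the C1 inhibitor, at 259 and 361, again with 0 in HLU. The edgeR adjusted p of these 4 genes lay between 0.0320 and 0.0465, and between 15 and 32 of the 57 Ctrl cells were at 0 for them. Cxcl1 and Ccl2 did not follow, with 0 in the HLU replicate 1 cell but 1468 and 856 CPM in the HLU replicate 2 cell.

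Of 12 periosteal markers 9 were tested and 3 were called lower, Postn, Ctsk and Sfrp2, beside 0.853% over all genes. Postn and Sfrp2 were among 4 tested members with no UMI in either HLU cell. Those passed the count filter through the Ctrl sums alone, so the count does not show a fall of the list. Ctsk stood at 783 and 756 CPM in Ctrl and at 29.4 and 0 in HLU (edgeR log2 change -5.48, SE 1.54, adjusted p = 0.0454), and 5 Ctrl cells held none. Postn stood at 1154 and 48.5 CPM in Ctrl, the second of them under the floor of 71.2 CPM, and 42 of 57 Ctrl cells were at 0. Prrx1, a transcription factor of limb mesenchyme, stood at 156 and 287 CPM in Ctrl and at 147 and 245 in HLU. Aspn, the proteoglycan asporin, stood at 16.4 and 137 CPM in Ctrl and at 0 and 1957 in HLU, on either side of Ctrl, without passing. Tnn, tenascin-N, stood at 248 and 120 CPM in Ctrl and at 0 in HLU without passing.

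Among matrix genes, 27 of 43 glycoproteins and proteoglycans were tested and 2 were called lower, Postn and Lum, beside 0.853% over all genes. Postn was among 7 tested members with no UMI in either HLU cell, which passed the count filter through the Ctrl sums alone. Lum (chr10:97565128-97572703, plus strand) stood at 4186 and 3647 CPM in Ctrl and at 0 and 245 in HLU (edgeR log2 change -6.40, SE 1.75, adjusted p = 0.0368). Dcn, which lies next to it (chr10:97479609-97518143, plus strand), did not move that way, at 7914 and 21150 CPM in Ctrl and 1236 and 46240 in HLU. Of 20 collagens outside the rule 14 were tested and 2 were called lower, again beside 0.853%. These were Col12a1 (768 and 420 CPM against 0) and Col5a3 (514 and 361 CPM against 0). Both were among 4 tested collagens with no UMI in either HLU cell, which passed the count filter through the Ctrl sums alone. Col5a2 did not pass, at 1179 and 1184 CPM in Ctrl and at 559 and 6973 in HLU, and the HLU cells lay on either side of Ctrl. Col6a1, at 1214 and 1226 CPM in Ctrl and 0 and 856 in HLU, was below both Ctrl sums without passing. None of 17 tested enzymes of collagen processing passed, beside 0.914% over all genes.

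Of 19 cartilage markers 11 were tested and 3 were called lower, 1500015O10Rik, Chad and Clu, beside 0.853% over all genes. The first 2 were among 4 tested members with no UMI in either HLU cell. Those passed the count filter through the Ctrl sums alone, so the count does not show a fall of the list. The 1500015O10Rik sums were 2914 and 1802 CPM in Ctrl and 0 in HLU, at least 33.1-fold lower (edgeR adjusted p = 0.0217). In the neutrophil gate this gene stood at 1090.0 and 928 CPM in Ctrl and at 2.43 and 10.6 in HLU, so its background moved the same way. Chad stood at 896 and 2043 CPM in Ctrl and 0 in HLU, at least 20.6-fold lower than the mean and 12.6-fold than the lower Ctrl sum (edgeR adjusted p = 0.0224), and Clu at 1347 and 3079 CPM against 29.4 and 0. Their neutrophil gate levels were 442 and 279 CPM in Ctrl and 14.01 and 13.4 in HLU for Chad, and 796 and 474 against 1.83 and 13.2 for Clu. Comp, Cilp and Prg4, of the same list, stood at 14440, 11130 and 8808 CPM in the HLU replicate 2 cell and at 0 in the HLU replicate 1 cell, against Ctrl sums of at most 5921, 1019 and 903, so the HLU cells lay on either side of Ctrl. Angptl7, of the tendon list, stood at 446 and 612 CPM in Ctrl from 11 cells and at 0 in HLU.

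Growth factor genes gave single calls. Tgfb2 stood at 620 and 308 CPM in Ctrl and at 0 in HLU (edgeR adjusted p = 0.0305), the only call among 20 tested of 36 genes of PDGF, FGF and TGF-beta signalling. It was seen in 41 of 57 Ctrl cells. Outside the Mmp13 cells it stood at 50.2 and 46.1 CPM in the Spp1 cells and 67.0 and 38.4 in the other cells, all under the floor of 71.2 CPM. Sfrp2 was the only call among 5 tested of 39 Wnt genes, Igfbp2 among 6 tested of 10 insulin-like growth factor genes, and Ptgs2 among 4 tested of 10 osteoclast regulators. These counts, and that for Tgfb2, stand beside 0.853% lower over all genes tested. Sfrp2 stood at 599.7 and 99.2 CPM in Ctrl and at 0 in HLU, at least 1.39-fold lower than the lower Ctrl sum, and 36 of the 57 Ctrl cells held none. Igfbp2 was at 65.4 CPM in Ctrl replicate 2, under the floor of 71.2 CPM. Tnfsf11, which encodes RANKL, was seen in 11 Ctrl cells at 22.6 and 25.3 CPM, too few for a test. Its decoy receptor gene Tnfrsf11b stood at 30.8 and 146 CPM. Vcam1, an adhesion receptor that retains blood cells, stood at 337 and 110 CPM in Ctrl and 0 in HLU (edgeR adjusted p = 0.0781).

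The remaining called genes named by the rule were Ccl5, Procr and Ndufa4l2. Ndufa4l2, a mitochondrial subunit induced by hypoxia, stood at 335 and 1718 CPM in Ctrl and at 0 in HLU, at least 14.4-fold lower than the mean and 4.70-fold than the lower Ctrl sum (edgeR adjusted p = 0.0224). Ccl5 was at least 13.3-fold lower than the mean and 4.80-fold than the lower Ctrl sum, although 45 of 57 Ctrl cells held none. Of the 28 genes lower in HLU, 19 were higher in the Mmp13 cells than in the remaining cells in both Ctrl libraries, and 9 were seen in under 50% of Ctrl cells. No share over all genes tested stands beside these counts, so they describe the called genes and cannot be read as unusual. Neither HLU cell was an Mmp13 cell, whereas 37 of 57 Ctrl cells were, so the makeup of the sums and the level per cell cannot be told apart for the lower genes. Within the limits of the rule, the HLU replicate 1 cell held 117.7 CPM of Bglap and 353.2 of Bglap2. The Ctrl sums held at most 30.8 and 20.5. That cell had no UMI of Col3a1, Mmp2, Il1rl1 or Cxcl12.

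No gene with both HLU sums above both Ctrl sums passed. The 2 genes called higher, Tmem176b and AY036118, are named after their values were seen. Tmem176b stood at 1324 CPM in the HLU replicate 1 cell and 0 in the other, and AY036118 at 0 and 2691, against Ctrl levels of at most 71.8 CPM, so each call came from 1 cell. The stress factor Atf3 stood at 148 and 63.3 CPM in Ctrl and at 265 and 2324 in HLU, without passing (edgeR adjusted p = 0.186). Among heat shock genes Hspa8 stood at 1327 and 1007 CPM in Ctrl and 5357 and 4527 in HLU, and Hsp90aa1 at 388 and 323 against 2178 and 2936. Hspa1a overlapped, at 1655 and 838 CPM against 2207 and 1101. Of 24 tested genes of that list 0 passed, beside 0.914% over all genes, with a median log2 change of -0.09.

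The mechanosensing list, the closest to the question of unloading, gave no call. Of 33 genes 20 were tested, with a median log2 change of -0.55 beside -0.42 over all genes. Ctgf, a target of the load-responsive factors YAP and TAZ, stood at 785 and 2155 CPM in Ctrl and 2001 and 2936 in HLU, and Cyr61, another target, at 103 and 188 against 530 and 367. Piezo1, a stretch-gated channel, stood at 101 and 73.9 CPM in Ctrl and at 29.4 and 0 in HLU. Of 21 genes of glutamine uptake and use, the pathway the study followed, 12 were tested and 0 passed, and Slc3a2, a transporter subunit, stood at 450 and 416 CPM in Ctrl and 942 and 367 in HLU. No call fell in the osteoblast (7 tested), glucocorticoid (11), adipogenic (4), niche factor (4), adventitial (6), reticular (5), mural (2), endothelial (1), Schwann cell (1), neutrophil (6), macrophage (1), B cell (1), hypoxia and glycolysis (20), cell cycle (2) or ribosomal (78) lists, and no erythroid gene was tested. All these counts of 0 stand beside 0.914% called over all genes tested. At an unadjusted edgeR p under 0.05, 11 hypoxia and glycolysis, 3 reticular and 3 niche factor genes were lower and 0 higher. Over all 3284 genes 364 were lower and 38 higher at that level. With single cells on 1 side such counts do not show that the genes of these lists were alike.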

How the data were processed

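Single-cell libraries were made by the authors with the 10x 3′ kit (V3.1), aligned with Cell Ranger 6.0.0 to mm10 and analysed by them with Seurat 4.1.0. The deposited values are raw UMI counts of 31053 genes per barcode, 1 matrix per library, with 10000, 10000, 10000 and 10003 barcodes, and no deposited column was left unused (0). Barcodes with 1000 to 40000 UMIs, at least 200 genes, at most 10% mitochondrial and 0.2% haemoglobin UMIs were kept, as in the study. Putative doublets (Scrublet, 0.8% per 1000 cells) were marked and kept, and their removal was an alternative. The selection rule, lists and alternatives were chosen with earlier results of these data known, and the limits on Mmp13 and Spp1 after the values were seen.

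Counts of the selected cells were summed per library, and no cell was treated as a replicate. HLU and Ctrl were compared with edgeR 4.0.16 (TMM factors, filterByExpr, quasi-likelihood test, Benjamini-Hochberg adjustment) in R 4.3.3. With 2 mice per group, p-values measure the spread between these samples. CPM is UMIs per 1000000 UMIs of the sum. A planned test of whether the effect differed from osteoblasts was not run, since gates held under 10 cells in every HLU library. Named genes were the 6 markers and rule genes, the 10 largest non-overlapping changes in each direction past the threshold (filled up by unadjusted p), the 3 most abundant members and every called member of each list, the 15 largest ratios to the osteoblast gate (at least 50 CPM in both Ctrl libraries, pseudocount 10 CPM) and the 10 most abundant genes. Some genes that this rule names are not reported here. Shares have exact Clopper-Pearson 95% intervals. DESeq2 1.42.0 was an alternative. Python 3.11.15, scanpy 1.11.5 and scipy 1.17.1 were used for cells and exact tests. Coordinates are from GENCODE M21, and promoters from RefSeq.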

Additional observations from a re-analysis of the deposited data

How the results depend on the processing

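The share of Pdgfra positive cells was lower in HLU under every alternative run, each with an exact permutation p of 0.33, and leaving out 1 library at a time gave differences between -0.375 and -0.371 percentage points (main -0.373). With collagens at 0.5% of UMIs or more the ratio of Ctrl to HLU was 58.5, and among collagen-rich cells 2.17. The count of 30 called genes depended on the processing. It was 31 with at least 2 Pdgfra UMIs, 29 with S100 transcripts under 1%, and 30 without putative doublets. Without a filter on low counts the calls were 5 higher and 3 lower, against 2 and 28 in the main fit. Without TMM the count was 30, split 7 higher and 23 lower, and the median of all genes moved from -0.42 to 0.03 on the log2 scale. It was 0 with 1 cell from each library (297 genes tested), 0 with collagens at 2% or more (HLU replicate 1 then had 0 cells, and 3 libraries were fitted), 0 with at least 10 counts in every library (77 genes tested), 8 without a filter on low counts (2 of them among the 30), 19 with TMM factors taken without neutrophil, erythroid and ribosomal genes, and 204 with DESeq2 (27 of the 30 among them). Leaving out 1 library gave 0 without Ctrl replicate 1, 0 without Ctrl replicate 2, 93 without HLU replicate 1 (9 of the 30 among them) and 48 without HLU replicate 2 (14 of the 30), with the lone sample assumed to vary like the other group. At an unadjusted p under 0.05 edgeR gave 402 genes, and 10, 436, 5, 19 and 19 in the settings with 0 calls named here. With the replicate number as a block there were 0 calls (98 genes at an unadjusted p under 0.05), and same-numbered deviations correlated at r = 0.24 over 3284 genes. With 2 pairs and no label of a shared litter or day, the libraries share only a number. No named gene reversed its direction past the threshold. The cause of these changes was not tested. The 2 HLU cells, with 42151 UMIs in all, limit every statement on expression.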

Other observations

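Transcripts of energy metabolism differed between the Pdgfra positive cells of the 2 Ctrl libraries. Gapdh, a glycolytic enzyme, stood at 2385 CPM in Ctrl replicate 1 and 4710 in Ctrl replicate 2, Ldha, lactate dehydrogenase A, at 587 and 1642, and Bnip3, a mitophagy receptor induced by hypoxia, at 185 and 661. Of 20 hypoxia and glycolysis genes tested 18 were higher in Ctrl replicate 2, by a median of 1.39 on the log2 scale, beside -0.08 over all genes. Within the Mmp13 cells alone the difference was as large, with 19 of the 20 higher by a median of 1.54. The same genes were higher in Ctrl replicate 2 in the osteoblast gate (20 of 20, median 0.85), the Myoc, Apod and Thbs4 gate (19, 1.25), the Pdgfra-negative neighbours (19, 0.64) and the neutrophil gate (19, 0.41). In the HLU cells Gapdh stood at 2090.0 and 612 CPM. With 1 library on each side there was no test.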
